A study of Saccharomyces cerevisiae with 36 samples.

Results

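The comparison described here sets a small chemostat against a 1 L reactor, both holding the same Hap1-tagged strain of the yeast Saccharomyces cerevisiae under joint oxygen and glucose limitation. Its members were chosen by group label: 6 of the 36 RNA-seq libraries of the series, 3 from each reactor, with all 6612 genes that passed the filter on low counts out of 7122 gene lines. The series title concerns the construction of mini-chemostats for characterising many strains, and the comparison asks how transcript levels differ between the reactors when the limitation is the same. The 36 libraries form 12 groups of 3, stated to be biological triplicates. They fall into 3 sets, each grown under 4 limitations. In the medium of the cultures described here, oxygen and glucose were limiting and glucose was supplied at 1% (OxGlu-lim). The other cultures were short of glucose alone, at 0.75% (Glu-lim), of the carbon source ethanol, at 0.5% (Et-lim), or of nitrogen, with 6% glucose (N-lim).

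Both groups compared carried HAP1-TAP, built on CEN.PK 113-5D by adding a CBP-ProtA purification tag to the C terminus of Hap1p, so the tag is shared by both. One group grew in vessels labelled MC, read as mini-chemostat from the series title, and the other in vessels labelled DASGIP 1 L. Cells were sampled once culture readings had been constant for 48 to 60 h, per the labels. Another group, untagged CEN.PK 113-5D in MC vessels under the same limitation, is given beside the results as a second set of MC values. No date, lane or batch is given in the labels, so the reactor and anything else that ran with a set cannot be told apart.

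In a chemostat a constant feed sets the growth rate and a scarce nutrient holds the cell density down. Budding yeast needs molecular oxygen to make haem, ergosterol and unsaturated fatty acids. When oxygen is scarce, haem falls, the haem-dependent activator Hap1 and the repressor Rox1 no longer act as in air, and hypoxic genes are switched on. When sterols run short, the activator Upc2 turns on cell wall mannoproteins of the DAN and TIR families and the transporters Aus1 and Pdr11, which import sterol. Chaperone genes, in contrast, answer to the heat shock factor Hsf1, and general stress genes to Msn2 and Msn4.

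The 6 libraries held 10700506 to 15547907 counted reads each, within the range of 10700506 to 22488845 over all 36. All 36 were most similar to a library of their own group. Log2 levels of DASGIP pairs correlated at r of 0.987 to 0.992 across genes, and the MC pair of replicates 1 and 2 at 0.990. MC replicate 3 stood further off, at 0.980 and 0.984 to the other MC libraries, so counts below that move by over 1.5 times without it are given both ways. HAP1 itself, the tagged gene, measured 353, 307 and 252 CPM (counts scaled by library size, the unit of all levels here) in DASGIP and 332, 345 and 415 in MC, and the difference was not called (0.26 ± 0.11 on the log2 scale, SE; adjusted p = 0.103). Mitochondrially encoded genes took 20.2%, 18.0% and 16.9% of the DASGIP reads and 25.3%, 18.7% and 24.4% of the MC reads (exact two-sided permutation test, p = 0.2, where 0.1 is the smallest p this design allows). Small RNA took 12.4% to 15.2% in DASGIP and 14.3% to 20.2% in MC (exact permutation test, p = 0.2). The groups overlapped in both shares.

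Between the reactors 1166 of 6612 genes were called at an adjusted p under 0.05 (edgeR), which is 17.6%: 589 (8.91%) were higher in MC and 577 (8.73%) lower. Counts of list members higher or lower in MC under OxGlu-lim are to be read against these shares. Most differences were small. Of the genes called, 106 were at least 2-fold higher in MC (1.6% of all genes) and 22 at least 2-fold lower (0.333%), and the median over all genes was 0.01 on the log2 scale. The 3 libraries of each group did not overlap in 1903 genes (28.8%). The call count rests partly on 3 of the libraries: it was 755 without MC replicate 3, 737 without DASGIP replicate 2 and 764 without DASGIP replicate 3. It was 391 when only the 6 libraries compared set the estimate of spread.

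**Figure D1:**
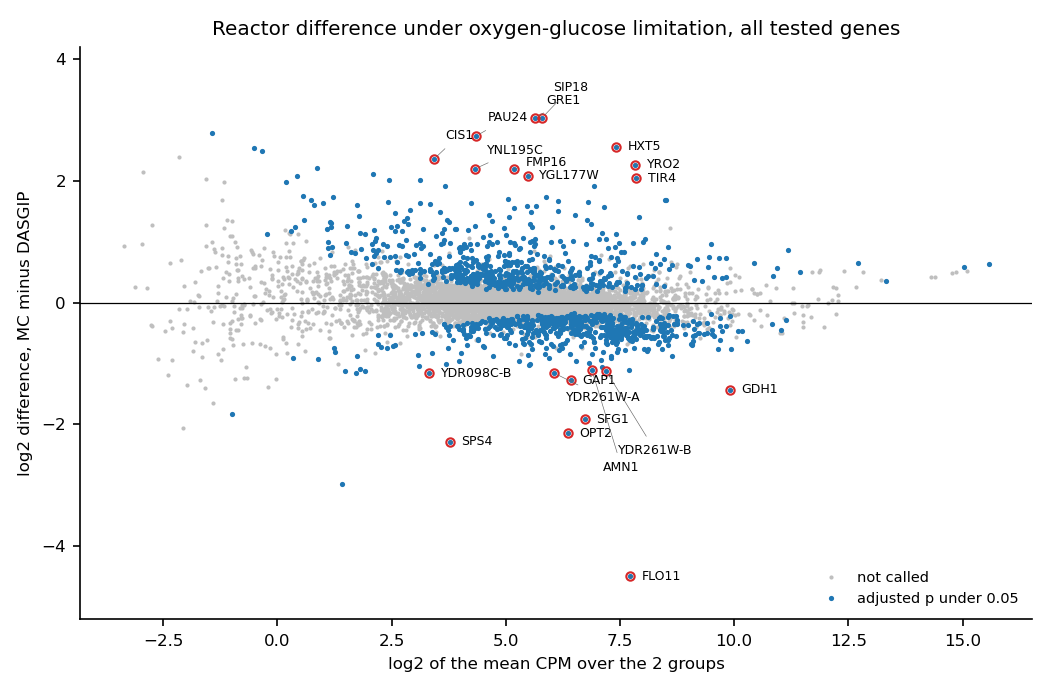
Log2 difference between MC and DASGIP (vertical) against the log2 of the mean CPM of both groups (horizontal, a log scale) for 6612 genes. Blue points are the 1166 genes called, red rings the 10 largest and 10 smallest differences among called genes with at least 10 CPM in one group and no overlap between groups, and FLO11 stands alone at -4.50.

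The 10 genes with the largest gain in MC were led by SIP18 and GRE1, which encode hydrophilins, small hydrophilic proteins linked to drying and osmotic stress. SIP18 (YMR175W, chromosome XIII, 611016 to 611255, build R64) measured 14.1, 11.7 and 10.3 CPM in DASGIP and 76.9, 123 and 96.7 CPM in MC, 8.18-fold higher (3.03 ± 0.40, SE; adjusted p = 3.76e-06). GRE1 rose from 14.3, 9.01 and 9.39 CPM to 60.6, 83.0 and 124 CPM (3.03 ± 0.36). In untagged MC cultures both genes lay between the tagged groups, at 18.4 to 36.5 CPM for SIP18 and 24.01 to 47.0 CPM for GRE1. The hexose transporter HXT5, known for expression at slow growth, had 61.5, 48.5 and 38.2 CPM in DASGIP against 227, 337 and 314 CPM in MC (2.56 ± 0.26; adjusted p = 8.01e-08). The others were the mannoprotein genes PAU24 (2.74) and TIR4 (2.04), CIS1 (2.35), the membrane protein gene YRO2 (2.26), YNL195C (2.20), the mitochondrial protein gene FMP16 (2.20) and YGL177W (2.09), a line with no match in the RefSeq table. All 10 were non-overlapping by the rule that chose them.

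The 10 largest falls in MC were FLO11 (-4.50), the sporulation-induced gene SPS4 (-2.29), the oligopeptide transporter OPT2 (-2.14), the pseudohyphal growth regulator SFG1 (-1.91), the glutamate dehydrogenase GDH1 (-1.43), the amino acid permease GAP1 (-1.28), the daughter-cell regulator AMN1 (-1.11) and the Ty element frames YDR098C-B (-1.16), YDR261W-A (-1.16) and YDR261W-B (-1.13), all on the log2 scale. Ty elements have near-identical copies and the last pair overlap on the same strand, so how reads were split between them is uncertain. YDR261W-B had 216, 212 and 179 CPM in DASGIP, 74.6, 89.9 and 113 CPM in tagged MC and 230, 216 and 209 CPM in untagged MC. The tagged MC libraries were low, and the untagged MC ones overlapped the DASGIP range.

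**Figure D2:**
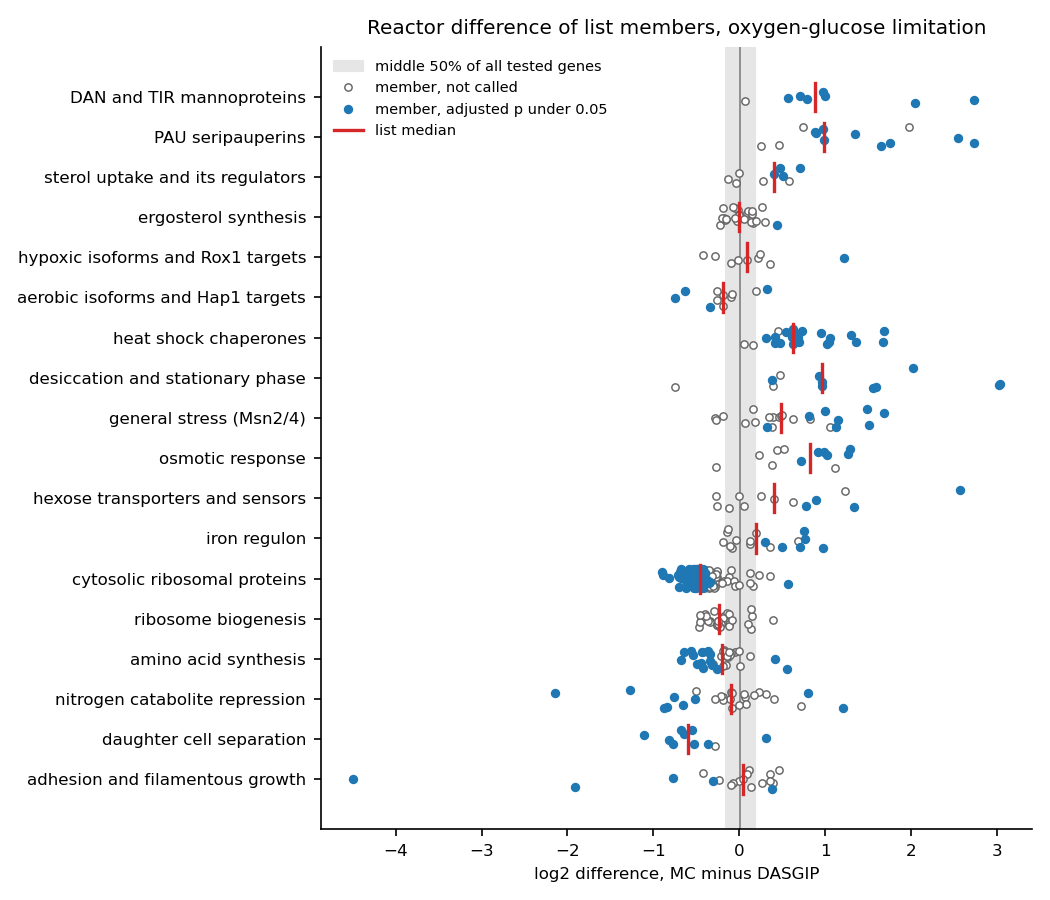
Log2 difference between MC and DASGIP for the members of 18 gene lists, 1 point a gene, filled where called. Red bars are list medians and the grey band holds the middle 50% of all tested genes. The mannoprotein, chaperone and desiccation lists lie to the right of the band, and ribosomal protein and daughter separation genes to its left.

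Among genes that answer to oxygen and sterol, the cell wall mannoproteins were higher in MC. Of 8 DAN and TIR genes 7 were called higher and 0 lower, with a median of 0.88 against 0.01 over all genes. Summed over the list, the level was 868, 879 and 1184 CPM in DASGIP, 1667, 1591 and 1679 CPM in tagged MC and 1422 to 1610 CPM in untagged MC, with no overlap between the reactors. The count was 5 without MC replicate 3, DASGIP replicate 1 or DASGIP replicate 2, and 4 with only the 6 libraries compared. TIR4 (YOR009W, chromosome XV, 344335 to 345798) measured 72.5, 71.9 and 128 CPM in DASGIP and 342, 364 and 413 CPM in MC, 4.11-fold higher (2.04 ± 0.23; adjusted p = 3.07e-07). Untagged MC cultures had 324, 377 and 381 CPM, overlapping the tagged MC ones. TIR3 (1.00 ± 0.20; adjusted p = 0.000756) was also called without overlap, TIR2 (0.79 ± 0.21) with 1 DASGIP library above the lowest MC one. TIR2 lies between TIR4 and AUS1 on chromosome XV. TIR1, at 363, 374 and 444 CPM against 428, 436 and 374 CPM, gave 0.07 ± 0.19 (adjusted p = 0.848). DAN1, at 216, 219 and 308 against 380, 300 and 417 CPM, passed with groups that overlapped (0.56 ± 0.19; adjusted p = 0.0367). It lost its call without DASGIP replicate 1 or 2 or MC replicate 1 or 3, with adjusted p-values of 0.075 to 0.15.

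PAU24, also known as DAN3, stood furthest out in the family at 4.83, 4.42 and 6.85 CPM in DASGIP, 41.0, 38.3 and 27.2 CPM in tagged MC and 17.1, 20.8 and 19.6 CPM in untagged MC (2.74 ± 0.23; adjusted p = 1.90e-09). The order of the 3 groups was without overlap. Of 13 tested PAU genes, a subtelomeric family of small mannoproteins to which PAU24 and PAU23 belong, 9 were called higher and 0 lower, or 5 higher with only the 6 libraries compared. Not all of these 13 were higher under OxGlu-lim than under Glu-lim. In DASGIP 4 were higher and 5 lower, and in MC 9 were higher and 4 lower. PAU2 was lower under OxGlu-lim by 2.85 in DASGIP and 1.73 in MC on the log2 scale. The 24 listed PAU genes are near-identical in part, and 11 fell below the filter, so the split of reads among them is uncertain. PAU12 reached only 2.43, 2.45 and 1.99 CPM in MC against 0.620, 0.648 and 0.770 CPM (1.75 ± 0.40).

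The core of the sterol regulatory element, TCGTATA, which Upc2 and its relative Ecm22 bind, was searched on both strands in the 300 bases before the start codon of 5984 genes in the R64 RefSeq genome. It occurred in 4 of 8 DAN and TIR windows (PAU24, PAU23, DAN1 and DAN4) and in 4.61% of all windows. No match was found in the windows of TIR1, TIR2, TIR3 and TIR4 or of the 9 sterol uptake genes, which says only that these letters are not there. Windows of 3 of the genes with a match are shown because PAU24 had the largest change of the list and DAN1 and DAN4 hold the same letters. The stretch farthest from the start codon is given, 150 bases read toward the gene, with the element in capitals. The cultures were CEN.PK, whose sequence may differ from the reference. PAU24 is chrII:808757-808906 (forward strand), with the element beginning 262 bases before the start codon. DAN1 is chrX:709858-710007 (reverse strand) and DAN4 is chrX:715891-716040 (reverse strand), with the element at 203 and 222 bases.
PAU24: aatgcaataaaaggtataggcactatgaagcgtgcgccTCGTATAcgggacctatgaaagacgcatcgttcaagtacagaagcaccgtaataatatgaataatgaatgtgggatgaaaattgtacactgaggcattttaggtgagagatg
DAN1: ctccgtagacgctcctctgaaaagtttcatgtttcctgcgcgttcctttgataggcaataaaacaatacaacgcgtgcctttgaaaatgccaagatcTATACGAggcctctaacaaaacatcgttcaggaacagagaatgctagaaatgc
DAN4: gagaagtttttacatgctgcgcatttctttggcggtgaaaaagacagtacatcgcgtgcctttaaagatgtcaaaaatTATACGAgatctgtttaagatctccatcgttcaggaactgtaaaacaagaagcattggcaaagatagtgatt

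The sterol transporters AUS1 and PDR11 were higher in MC. Of 9 listed genes of sterol uptake and its regulation 4 were called higher and 0 lower (median 0.41), and the others, among them SUT2 (-0.03) and ARE2 (-0.13), were not called. AUS1 (YOR011W, chromosome XV, 349679 to 353863), the sterol transporter, measured 395, 417 and 515 CPM in DASGIP and 848, 689 and 633 CPM in MC (0.71 ± 0.09; adjusted p = 3.70e-06). Its partner PDR11 went from 137, 122 and 131 CPM to 191, 178 and 173 CPM (0.48 ± 0.08; adjusted p = 0.0002). Neither overlapped between reactors. Untagged MC cultures lay above DASGIP for both, at 628, 648 and 698 CPM for AUS1 and 154, 154 and 162 CPM for PDR11. UPC2, the activator, had 122, 125 and 122 CPM against 180, 176 and 133.6 CPM (0.41 ± 0.13; adjusted p = 0.0298), a call lost without any 1 of DASGIP replicates 1, 2 and 3 and MC replicates 1 and 2 (adjusted p-values of 0.063 to 0.12). ARE1, an acyltransferase that stores sterol as ester, was higher by 0.51 ± 0.11, though it overlaps YCR050C on the other strand. Ergosterol synthesis was nearly flat: 1 of 25 genes, ERG25 (0.44 ± 0.11), was called higher and 0 lower, with a median of 0.00.

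Among 9 hypoxic isoforms and Rox1 targets 1 was called higher, CYC7, and 0 lower, a share close to the 8.91% of all genes called higher. CYC7, the hypoxic form of cytochrome c, read 30.1, 9.66 and 16.2 CPM in DASGIP and 32.5, 30.2 and 68.0 CPM in MC (1.22 ± 0.32; adjusted p = 0.00759). DASGIP replicate 1 lay just under the lowest MC library, and the call was lost without MC replicate 3 (0.75 on the log2 scale; adjusted p = 0.13) or without DASGIP replicate 2 (0.91; adjusted p = 0.07). CYC1, the aerobic form, was lower in MC, at 173, 146 and 146 CPM against 100.5, 78.4 and 98.8 CPM (-0.74 ± 0.14; adjusted p = 0.000387). Untagged MC cultures had 97.3, 103 and 95.6 CPM of CYC1, also below every DASGIP library. ANB1 (0.35 ± 0.20), the hypoxic form of translation factor eIF5A, was not called, whereas its aerobic form HYP2 was lower (-0.34 ± 0.07; adjusted p = 0.000685). HYP2 was not lower in the untagged MC cultures, at 694, 691 and 666 CPM against 686, 647 and 686 CPM in DASGIP.

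For cytochrome oxidase the hypoxic subunit gene COX5B (0.22 ± 0.17) and its aerobic partner COX5A (-0.10 ± 0.09) were both uncalled, as were the haem synthesis gene HEM13 (0.24 ± 0.10; adjusted p = 0.116) and the repressor ROX1 (-0.28 ± 0.18; adjusted p = 0.307). HEM13 was called without DASGIP replicate 3 (0.40) or MC replicate 3 (0.34), ANB1 without DASGIP replicate 3 (0.73), and HAP1 without DASGIP replicate 1 (0.38). Of 11 aerobic and Hap1-dependent genes 3 were lower, or 5 without MC replicate 3, and 1 was higher (median -0.19): the flavohaemoglobin YHB1 fell from 1380, 1437 and 1730 CPM to 1109, 924 and 902 CPM (-0.63 ± 0.16), and the mitochondrial superoxide dismutase SOD2 was higher (0.32 ± 0.11). YHB1 was itself higher under OxGlu-lim than under Glu-lim in both reactors, by 1.23 in DASGIP and 1.12 in MC on the log2 scale. None of 8 haem synthesis genes was called. Of 25 nuclear respiratory chain genes 2 were higher and 2 lower (8% each), near the shares of all genes, 8.91% and 8.73%. The genes called included a pair of outward-facing NADH dehydrogenases, NDE1 (-0.74 ± 0.13) and NDE2 (1.11 ± 0.20). Among citric acid cycle genes 0 of 13 were higher and 3 lower (23.1%), with the isocitrate dehydrogenase subunits IDH1 (-0.41) and IDH2 (-0.34) among them. That count was 1 without DASGIP replicate 3, MC replicate 1 or MC replicate 2. Of 8 mitochondrially encoded proteins 1 was called, ATP6 (0.87 ± 0.22), in libraries whose mitochondrial share varied as given above.

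**Figure D3:**
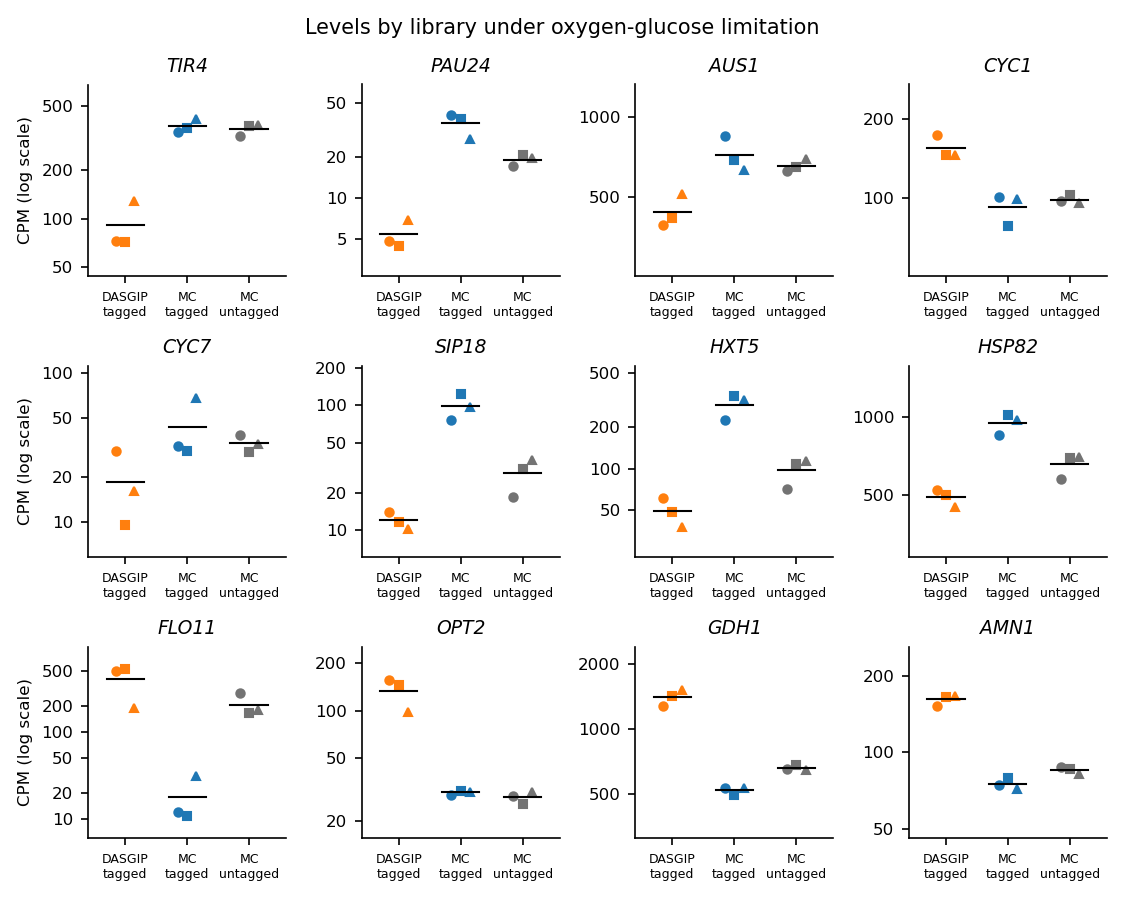
CPM (log scale) of 12 genes in each library under oxygen-glucose limitation, by group, with circles, squares and triangles for replicates 1, 2 and 3 and a bar for the mean of 3. Untagged MC cultures sit with tagged MC for TIR4 and OPT2, and between the other groups for SIP18, HXT5 and PAU24.

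Chaperone genes, which keep proteins folded or rescue them from clumps, were higher in MC. Of 23 listed, 20 were called higher and 0 lower (median 0.63), against 8.91% of all genes called higher. In 22 of the 23 the groups did not overlap, against 28.8% of all genes. Their summed level was 7462, 7282 and 7231 CPM in DASGIP and 9792, 11569.9 and 11141 CPM in MC, with untagged MC cultures at 7749, 8613 and 8664 CPM in between. The count stayed between 15 and 21 under all the alternatives run, and was 19 without MC replicate 3. The largest changes were in the small heat shock protein HSP26 (1.69 ± 0.38; adjusted p = 0.00242), the plasma membrane protein HSP30 (1.68 ± 0.30) and BTN2, which sorts misfolded proteins (1.36 ± 0.15; adjusted p = 2.2e-07). BTN2 had 63.5, 63.6 and 58.0 CPM in DASGIP and 146, 154 and 176 CPM in MC. Among the Hsp90 and Hsp70 genes, HSP82 went from 521, 499 and 445 CPM to 854, 1017 and 973 CPM (0.96 ± 0.19), while its constitutive sister HSC82 was not called (0.16 ± 0.12). SSA3 and SSA4, the inducible Hsp70 genes, were higher by 1.30 and 1.02, and the constitutive SSA2 gave 0.05. These pairs are close in sequence, so reads may be split between them.

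The heat shock element was searched in the same windows as 3 alternating units of TTC and GAA, starting with either and each parted from the next by NN (any 2 bases), on both strands. It occurred in 10 of the 23 chaperone windows and in 0.869% of all windows. HSP42, HSP78 and HSP104 are shown, since they hold the element and encode the small chaperone and the disaggregases of mitochondria and cytosol that rose by 1.05 ± 0.23, 0.63 ± 0.13 and 0.73 ± 0.17. The capitals mark the matches, of which HSP42 and HSP78 have a pair that overlap. The stretches are chrIV:806321-806470 (forward strand), chrIV:974394-974543 (reverse strand) and chrXII:88323-88472 (forward strand), and their first matches begin 243, 247 and 297 bases before the start codon.
HSP42: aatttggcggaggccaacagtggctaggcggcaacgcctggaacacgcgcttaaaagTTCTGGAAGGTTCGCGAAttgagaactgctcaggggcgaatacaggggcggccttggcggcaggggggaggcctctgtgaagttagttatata
HSP78: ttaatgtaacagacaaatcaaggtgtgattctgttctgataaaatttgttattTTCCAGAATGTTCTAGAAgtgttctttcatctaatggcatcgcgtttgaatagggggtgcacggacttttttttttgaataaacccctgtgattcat
HSP104: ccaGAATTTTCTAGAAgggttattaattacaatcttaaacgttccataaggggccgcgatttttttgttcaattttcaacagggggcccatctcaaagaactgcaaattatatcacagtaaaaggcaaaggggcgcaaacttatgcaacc

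In the tagged strain, other stress lists leaned the same way. Of 12 genes linked to desiccation and stationary phase 9 were higher (75%, against 8.91% of all genes) and 0 lower (median 0.96). The count of higher genes was 8 without MC replicate 3. Besides SIP18 and GRE1 this list held SPG1, at 3.10, 2.24 and 1.08 CPM against 4.63, 8.34 and 13.5 CPM (2.02 ± 0.44). Of 23 general stress genes tied to Msn2 and Msn4, 8 were higher (34.8%) and 0 lower (median 0.49). Their summed levels overlapped between the reactors, at 9246, 7642 and 9331 CPM in DASGIP and 7672, 9226 and 11374 CPM in tagged MC. Untagged MC cultures lay below every DASGIP library, at 6543, 6746 and 6556 CPM, and their list median against DASGIP was -0.32. The small membrane chaperone HSP12 rose from 229, 165 and 124 CPM to 415, 682 and 572 CPM (1.69 ± 0.37; adjusted p = 0.0018), and DDR2 (1.51) and GND2 (1.49) were next. This count moved with single libraries, to 5 without DASGIP replicate 3 and 14 without MC replicate 1. Of 12 osmotic response genes 6 were higher (50%) and 0 lower (median 0.82). They included the glycerol enzymes GPD1 (0.98 ± 0.15) and GPP2 (1.02 ± 0.20), RTC3 (1.29 ± 0.27) and GRE2 (1.26 ± 0.20). GPD1 read 132, 115 and 114 CPM in DASGIP and 203, 263 and 245 CPM in MC, yet 121, 140 and 129 CPM in untagged MC. Among 20 oxidative stress genes 6 were higher (30%), led by the peroxiredoxin AHP1 (1.41 ± 0.20), and 1 was lower (5%, against 8.73% of all genes). The count of higher genes, however, was 1 without MC replicate 3 or DASGIP replicate 2, 2 without DASGIP replicate 3 and 3 without MC replicate 2.

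Sugar transport and carbon use changed in a few genes. Of 13 hexose transporters and sensors 4 were higher (30.8%, against 8.91% of all genes) and 0 lower: HXT5 (above), HXT4 (1.34 ± 0.25), HXT3 (0.89 ± 0.16) and HXT10 (0.78 ± 0.25). HXT2, a high-affinity transporter, was at 193, 277 and 222 CPM in DASGIP and 675, 499 and 446 CPM in MC without overlap, but missed the threshold (1.23 ± 0.47; adjusted p = 0.068). HXT6 (-0.27 ± 0.40) and HXT7 (-0.26 ± 0.37) were not called, and their near-identical sequences make the split between them uncertain. Of 17 genes of gluconeogenesis and the glyoxylate cycle 5 were higher (29.4%) and 1 lower (5.88%, against 8.73% of all genes). Of 16 peroxisomal genes 4 were higher (25%) and 0 lower. Without MC replicate 3 these counts of higher genes were 0 and 1, and without DASGIP replicate 3 both were 1. Without DASGIP replicate 2 they were 3 and 2, and the gluconeogenesis count was 9 without MC replicate 1. In MC replicate 3 the 16 peroxisomal genes summed to 1781 CPM, against 820.5 and 846 CPM in MC replicates 1 and 2 and 1096, 850 and 695 CPM in DASGIP. The carnitine acetyltransferase YAT1, also highest in MC replicate 3, read 60.9, 45.8 and 54.3 CPM in DASGIP and 106, 104 and 293 CPM in MC (1.65 ± 0.26).

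Cytosolic ribosomal protein genes were lower in MC in 87 of 137 cases and higher in 1, RPS22B, against 8.73% of all genes called lower. The list median was -0.45. The summed level was 33275.5, 38304 and 42346 CPM in DASGIP and 31953, 28079 and 23596 CPM in MC, with the lowest DASGIP library just above the highest MC one. The count of lower genes was 27 without MC replicate 3, 30 without DASGIP replicate 3, 107 without DASGIP replicate 1 and 116 without MC replicate 1. It was 35 with only the tagged libraries and 18 with only the 6 compared. Untagged MC cultures summed to 29206, 30714 and 31303 CPM. The largest falls were in RPS26B (-0.90 ± 0.17), RPL9A (-0.88 ± 0.21) and RPP2A (-0.81 ± 0.15). Most yeast ribosomal proteins have a near-identical second copy, so single paralogs are uncertain. Ribosome biogenesis genes had 0 of 30 called in either direction (median -0.24), and 3 of 8 genes of RNA polymerase I and its initiation factors were lower, RRN3 (-0.39 ± 0.08; adjusted p = 0.0017) among them, a count of 1 without DASGIP replicate 2 or 3 or MC replicate 3.

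FLO11 (YIR019C, chromosome IX, 389572 to 393675), the adhesin that carries invasive and pseudohyphal growth, had the largest change of all genes called. It read 506, 524 and 186 CPM in DASGIP and 11.9, 10.8 and 30.98 CPM in tagged MC, a 22.6-fold fall (-4.50 ± 0.33; adjusted p = 8.03e-11). Untagged MC cultures had 275, 163 and 178 CPM. The tagged MC libraries were lowest, the untagged ones overlapped DASGIP replicate 3, and replicate 3 of each tagged group lay nearest to the other reactor. In bulk RNA, fewer cells expressing a gene and less RNA per cell cannot be told apart. DASGIP libraries under Glu-lim held 7.66 ± 0.352 CPM (SD, n = 3) and MC ones 4.94 ± 1.21 CPM. Of 19 genes of adhesion and filamentous growth 4 were lower (21.1%, against 8.73% of all genes) and 1 higher (5.26%, against 8.91%), with a median of 0.04. SFG1, the activator PHD1 and STE12 fell with FLO11, and SOK2 was higher (0.39 ± 0.10). SFG1 read 156, 186 and 161 CPM against 51.0, 50.1 and 32.5 CPM, and PHD1 362, 327 and 292 CPM against 175, 200 and 200 CPM. The other flocculin genes FLO1, FLO5, FLO9 and FLO10 gave differences of 0.47, 0.14, 0.12 and 0.27 that were not called.

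Genes with which a daughter cell frees itself from its mother were lower in MC. Of 10 listed 8 were lower and 1 higher, PRY3 (median -0.59), and the count was 6 without DASGIP replicate 2, MC replicate 2 or MC replicate 3. These genes include the chitinase CTS1, the glucanase-like SCW11 and the DSE genes. CTS1 read 613, 663 and 731 CPM in DASGIP and 439, 439 and 375 CPM in tagged MC (-0.68 ± 0.12), and 357, 347 and 360 CPM in untagged MC. AMN1, which helps a daughter cell reset the cell cycle, read 153, 165 and 167 CPM against 74.1, 79.1 and 71.8 CPM (-1.11 ± 0.12; adjusted p = 3.07e-07). All 6 MC libraries, tagged and untagged, lay below every DASGIP library for both genes. SCW11 (-0.82 ± 0.13) and DSE1 (-0.77 ± 0.13) were the next largest.

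Nitrogen genes were more often called lower than higher in MC. Nitrogen catabolite repression is the control that keeps genes for poor nitrogen sources off in rich supply. Of 27 genes under it, 7 were lower (25.9%, against 8.73% of all genes), and the list median was -0.09. The 2 called higher (7.41%) were a share near the 8.91% of all genes. OPT2 (YPR194C, chromosome XVI, 924304 to 926937) measured 156, 146 and 98.4 CPM in DASGIP, 29.3, 30.95 and 30.5 CPM in tagged MC and 28.5, 25.3 and 30.4 CPM in untagged MC (-2.14 ± 0.14; adjusted p = 2.16e-11). Both MC groups were low and alike. GAP1 read 170, 120 and 74.9 CPM against 45.6, 50.4 and 54.9 CPM (-1.28 ± 0.17; adjusted p = 4.09e-06), a wide spread in DASGIP that still cleared the MC libraries. The amino acid permease AGP1 (-0.87), the ammonium permease MEP2 (-0.84) and the glutamine synthetase GLN1 (-0.76 ± 0.11) fell as well. DAL80, which encodes a GATA-type repressor of this set, was higher, at 5.58, 6.59 and 10.9 CPM against 14.6, 20.8 and 17.2 CPM (1.21 ± 0.23). GDH1, which makes glutamate from ammonium and is not on that list, read 1281, 1418 and 1515 CPM in DASGIP, 533, 496 and 536 CPM in tagged MC and 653, 678 and 645 CPM in untagged MC (-1.43 ± 0.13; adjusted p = 1.13e-08).

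The GATA site GATAAG, searched on both strands, occurred in 15 of the 27 windows and in 14.7% of all windows. GAP1 is shown as the permease with the largest fall, in chrXI:514763-514912 (forward strand), with matches beginning 293 and 242 bases before the start codon.
GAP1: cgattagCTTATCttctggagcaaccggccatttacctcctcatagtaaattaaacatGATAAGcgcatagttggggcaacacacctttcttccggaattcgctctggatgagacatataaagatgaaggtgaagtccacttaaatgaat

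Among amino acid synthesis genes 13 of 32 were lower (40.6%, against 8.73% of all genes) and 2 higher (6.25%, against 8.91%), with a median of -0.20. The arginine genes ARG56 (-0.67 ± 0.13), ARG1 (-0.64 ± 0.15) and ARG4 (-0.56 ± 0.13) fell most. The count of lower genes was 8 without MC replicate 3 and 4 with only the 6 libraries compared. Of 17 tested iron regulon genes 6 were higher (35.3%, against 8.91% of all genes) and 0 lower. They were led by FIT2, a cell wall protein that holds siderophore iron (0.97 ± 0.16), and the siderophore transporters ARN1 and SIT1 (both 0.76). FIT2 read 148, 136 and 164 CPM against 290, 242 and 347 CPM. Untagged MC cultures held 296, 322 and 279 CPM of FIT2, in the tagged MC range. Of 12 tested phosphate regulon genes 0 were higher and 4 lower (33.3%), or 2 lower without any 1 of the DASGIP libraries. The phosphate transporter PHO84 had 70.5, 70.5 and 59.5 CPM in DASGIP, 43.7, 40.1 and 44.2 CPM in tagged MC and 45.5, 43.8 and 42.3 CPM in untagged MC (-0.65 ± 0.08; adjusted p = 2.83e-06).

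The mating type markers matched MATa cells in both reactors. The 7 MATa genes summed to 1121, 1056 and 1159 CPM in DASGIP and 836, 970 and 1043 CPM in MC, and the 4 MATalpha genes to 44.6 to 54.1 CPM and 55.7 to 60.6 CPM. BAR1 was called lower (-0.48 ± 0.14) and STE3 higher (0.47 ± 0.13). Of 13 meiosis genes 2 were higher and 1 lower, SPS4, which fell from 21.1, 25.8 and 21.3 CPM to 5.59, 4.597 and 3.85 CPM. Summed, they gave 118 to 126 CPM in DASGIP and 117 to 124 CPM in MC. In the 15 lists not described, with 336 tested members between them, 22 members were higher and 13 lower. Both are smaller shares than the 8.91% and 8.73% of all genes.

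Whether the reactor difference was the same under the other limitations was asked next. Their libraries belong to neither group compared above, but they shared the same fit and its estimate of spread. The same strain gave 1211 called genes (18.3%) between reactors with nitrogen limiting, 782 (11.8%) with ethanol and 1397 (21.1%) with glucose alone. Lower in MC under N-lim were 7.74% of genes, and higher in MC were 5.82% under Et-lim and 9.21% under Glu-lim. Of the 10 daughter separation genes 9 were lower under N-lim, 9 with ethanol limiting and 7 in the Glu-lim cultures. Of all genes 7.74%, 6% and 11.9% were lower, in the same order. Of the 23 chaperones 18 were higher under N-lim (10.6% of all genes were) and 5 with ethanol limiting. Under Glu-lim 4 were higher and 1 lower. Their medians were 0.63 under both OxGlu-lim and N-lim, 0.17 with ethanol and 0.07 in Glu-lim cultures. The fold changes under OxGlu-lim were nearest to those under N-lim (Pearson r = 0.46 across 6612 genes), followed by Et-lim (0.24) and Glu-lim (0.15). Genes are not independent replicates, so no test is attached to these. Of the 589 genes higher in MC under OxGlu-lim, 249 (42.3%) were also higher under N-lim, which is 35.6% of the N-lim list. Shared with Glu-lim were 118 (20.03% and 19.4%) and with Et-lim 99 (16.8% and 25.7%). Genes called in opposite directions numbered 20 between OxGlu-lim and N-lim, 24 with Et-lim and 71 with Glu-lim. Of the 577 lower genes, 147 (25.5%), 103 (17.9%) and 105 (18.2%) were lower under N-lim, Glu-lim and Et-lim.

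Genes called in the same direction under all 4 limitations numbered 24 higher and 28 lower. Those lower held 7 of the 10 daughter separation genes, AMN1, SCW11, CTS1, DSE1, DSE2, DSE4 and ASH1, and GDH1 besides. AMN1 gave -1.11, -0.71, -1.02 and -0.71 under OxGlu-lim, N-lim, Et-lim and Glu-lim. Those higher included GRE1 (3.03, 2.69, 0.99 and 0.99 in the same order), BTN2, GPP2, GRE2 and STL1. None of the mannoprotein or sterol import genes was among them.

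A direct test of the OxGlu-lim difference against the mean of the other 3 called 448 genes (6.78%), 252 more positive (3.81%) and 196 more negative (2.96%) under OxGlu-lim. FLO11 (-4.06 ± 0.38; adjusted p = 3.9e-08), OPT2 (-2.22 ± 0.16; 2.4e-10) and SPS4 (-1.75 ± 0.29) were the most negative among genes of at least 10 CPM. OPT2 differed by -0.02, 0.02 and 0.23 under N-lim, Et-lim and Glu-lim. At the positive end were PAU24 (2.88 ± 0.54; 0.0016), DAL80 (2.04 ± 0.28) and TIR4 (1.74 ± 0.28). TIR4 was higher in MC under Glu-lim as well (1.13), but gave -0.20 and -0.02 under N-lim and Et-lim. AUS1 (0.49), PDR11 (0.56) and CYC1 (-0.73) also differed from the other limitations, whereas SIP18 (1.39; adjusted p = 0.062) did not pass, its difference being 4.49 under N-lim. By list, 8 of 23 chaperones were more positive under OxGlu-lim than the mean of the other 3, although their median under N-lim alone was the same as under OxGlu-lim, and 0 were more negative. Also called were 4 of 8 DAN and TIR genes as more positive and 17 of 137 ribosomal protein genes as more negative, and 0 of 10 daughter separation genes were called either way. The 448 fell to 192 without DASGIP replicate 3 of the oxygen-limited group and 220 with only the tagged libraries.

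**Figure D4:**
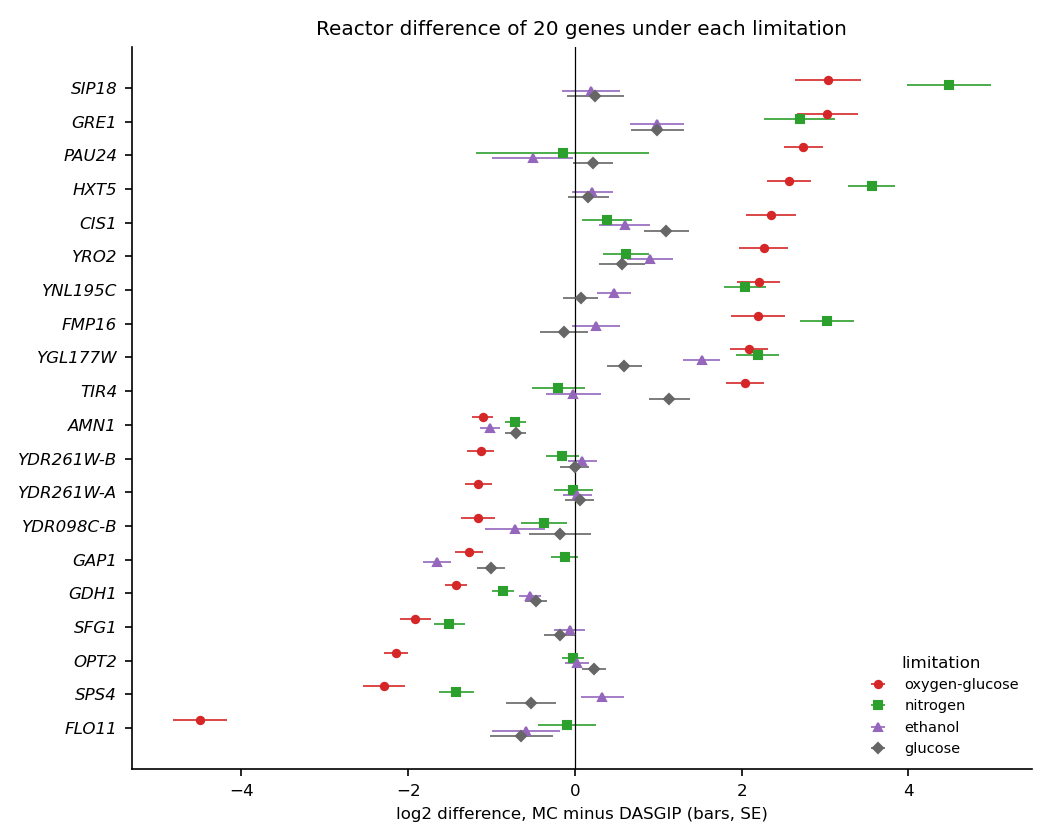
Log2 difference between MC and DASGIP, with SE bars, under each of 4 limitations for the 10 largest gains and 10 largest falls under oxygen-glucose limitation. FLO11, OPT2 and PAU24 stand out in the oxygen-limited cultures, SIP18 and HXT5 differ also under nitrogen limitation, and AMN1 is shifted under all 4.

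The same libraries show what the oxygen-limited state looked like against glucose limitation in each reactor. In DASGIP 2936 genes (44.4%) differed between OxGlu-lim and Glu-lim, and in MC 2981 (45.1%). The DAN and TIR genes were higher under OxGlu-lim in both reactors (7 of 8 in DASGIP, 8 of 8 in MC, against 21.7% and 22.5% of all genes). TIR1 was higher under OxGlu-lim by 6.47 in DASGIP and 6.71 in MC, DAN1 by 6.19 and 6.05, ANB1 by 5.61 and 5.70, AUS1 by 2.99 and 3.58, and HEM13 by 2.51 and 2.89 (all on the log2 scale). For TIR1, DAN1, ANB1 and HEM13 the difference between these values did not pass the test, and for AUS1 it did (0.58; adjusted p = 0.0043). ROX1 went opposite ways, by 0.64 ± 0.18 in DASGIP and -0.44 ± 0.18 in MC (difference -1.08; adjusted p = 0.0059). CYC7 was higher in MC (2.59 ± 0.34), and in DASGIP by 0.71 ± 0.34 without passing (difference 1.87; adjusted p = 0.0093).

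Most chaperone and desiccation genes were lower under OxGlu-lim in both reactors, with less negative medians in MC. Of 23 chaperones, 20 were lower in DASGIP and 15 in MC, where 22.7% and 22.6% of all genes were, with medians of -1.15 and -0.60, and 14 had a less negative value in MC by the test of the difference, 0 a more negative one. SIP18 went from 403 ± 38.8 CPM under Glu-lim to 12.03 ± 1.90 CPM under OxGlu-lim in DASGIP, and from 478 ± 128 to 98.7 ± 22.9 CPM in MC (SD, n = 3). That is -5.06 and -2.27 on the log2 scale. Of the 12 desiccation genes 10 were lower and 1 higher in DASGIP, and 7 lower and 3 higher in MC (medians -1.51 and -0.65). By the same test 9 of the 12 had a more positive value in MC. The chaperones held 0 genes called higher in DASGIP and 2 in MC, where 21.7% and 22.5% of all genes were. General stress genes were mixed in MC, with 9 of 23 lower and 3 higher, against 17 lower and 1 higher in DASGIP. FLO11 was higher under OxGlu-lim by 5.73 ± 0.35 in DASGIP and 1.87 ± 0.36 in MC. OPT2 was higher by 2.44 ± 0.15 in DASGIP, and in MC its difference of 0.06 ± 0.14 did not pass (adjusted p = 0.76). Across genes 919 (13.9%) differed between the reactors in this way, 562 more positive in MC (8.5%) and 357 more negative (5.4%).

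**Figure D5:**
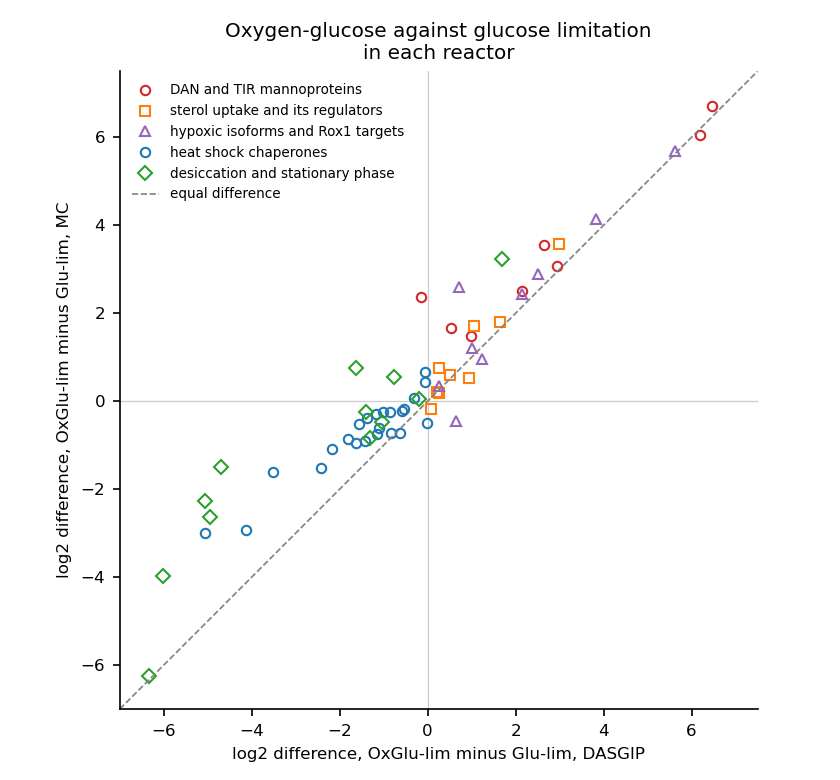
Log2 difference between OxGlu-lim and Glu-lim in MC (vertical) against that in DASGIP (horizontal) for the members of 5 lists, with the dashed line marking equal differences. TIR1, DAN1 and ANB1 at the upper right lie near the line, PAU24 and CYC7 well above it, and chaperone and desiccation genes at the lower left mostly above it.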

How the data were processed

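RNA was measured by sequencing in 36 chemostat libraries. RNA was extracted with RNeasy and libraries made with the TruSeq Stranded Total RNA kit with Ribo-Zero Gold, per the labels' protocols. The authors deposited whole-number read counts per gene, per the file headers. Bowtie2, SAMtools and bedtools on build R64 are named without versions in the submitters' processing notes, and whether counting used strand is not given in the sources used here. Each table gave 7122 gene lines, and 4 lines and 60 other columns of per-sample values were not used. Of the lines, 6045 matched the RefSeq table of R64, which gave names, coordinates and promoter windows.

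All 36 libraries entered 1 fit with 12 group means (edgeR 4.0.16 in R 4.3.3, limma 3.58.1), with TMM scaling, edgeR's filter on low counts (6612 genes left) and the quasi-likelihood test, with Benjamini-Hochberg adjustment over all tested genes at 0.05. Log2 differences carry SE, and CPM values use TMM-scaled library sizes. Shares of reads were compared by an exact permutation test. Design text calls the replicates biological.

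Named genes were the 10 largest and 10 smallest differences among called, non-overlapping genes of at least 10 CPM, up to 3 called members of each described list, 12 fixed oxygen and haem genes, and the 3 largest and 3 smallest differences from the other limitations. Other genes in the text were chosen after their values were seen. The members and the 45 gene lists were chosen with earlier results of these data known. Alternatives were upper-quartile and RLE factors, DESeq2 1.42.0, no filter and a filter of 5 CPM, smaller sets of libraries, equal depth, nuclear reading frames only, a replicate block and leaving out each library. The code was tested on simulated data.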

Additional observations from a re-analysis of the deposited data

Results flagged for a closer look

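A set of 38 named genes was picked out because their reactor difference under oxygen-glucose limitation differed from the mean of the other 3 limitations by edgeR's quasi-likelihood test at an adjusted p under 0.05. The values below are that difference between differences on the log2 scale, positive where MC was relatively higher under oxygen-glucose limitation. Each rests on 3 libraries a group, and no cause was tested.

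Cell wall and sterol genes were on the positive side, with PAU24 (2.88), PAU12 (1.79), TIR4 (1.74), PDR11 (0.56) and AUS1 (0.49). So were the stress and stationary phase genes SPG1 (2.03), GRE1 (1.47), AHP1 (0.88) and BTN2 (0.67) and, with them, YRO2 (1.57), YNL195C (1.34) and CIS1 (1.66). Sugar and carbon genes there were YAT1 (1.38), HXT5 (1.26), HXT4 (1.08), ACS1 (1.02) and HXT3 (0.75), and iron uptake genes SIT1 (0.79), FIT2 (0.75) and ARN1 (0.55). The remaining positive values were DAL80 (2.04), NDE2 (0.96) and HAP1 (0.54).

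On the negative side stood the adhesin and filamentation genes FLO11 (-4.06) and SFG1 (-1.33) and the transporters OPT2 (-2.22) and PHO84 (-0.70). Haem-linked and respiratory genes there were ROX1 (-0.82), CYC1 (-0.73), NDE1 (-0.51), IDH2 (-0.47) and HYP2 (-0.37). The others were SPS4 (-1.75), YDR261W-A (-1.18), YDR261W-B (-1.11), GDH1 (-0.80), RPP2A (-0.62) and RRN3 (-0.53).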

How the results depend on the processing

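The 1166 genes called between the reactors became 391 when only the 6 libraries compared entered the fit, and 737 to 1314 when each of the 6 was left out in turn. Of the 1166, 378 were called in the same direction with only those 6 libraries and 670 without MC replicate 3, and 0 were called in the opposite direction under any alternative run. The share of calls that were higher in MC was 50.5%. It was 62.5% (760 higher, 456 lower) with upper-quartile factors and 53.5% with RLE factors. With only the Hap1-tagged libraries it was 64.03% (509 and 286), and with only the 6 libraries compared 60.1%. The balance of directions thus moved with the scaling factors and with the libraries fitted. DESeq2 called 1310. The 448 genes whose reactor difference differed from the other limitations became 220 with only the Hap1-tagged libraries and 192 to 612 with a library left out (250 without DASGIP replicate 2, 211 without MC replicate 2). The 919 that differed from glucose limitation became 560 with only the Hap1-tagged libraries and 512 to 1274 with a library left out (512 without MC replicate 1 and 611 and 599 without DASGIP replicates 1 and 3 of the glucose-limited groups, 590 and 576 without DASGIP replicates 2 and 3 of the oxygen-limited group). The cause was not tested. Reactor differences in the share of reads kept their sign: 3.20 to 6.46 percentage points for mitochondrial, 2.28 to 5.22 for small RNA and -11.7 to -5.89 for nuclear reading frames. Same-numbered libraries did not deviate together (r of -0.358, 0.177 and -0.251), so the numbers do not pair them, and a fit with the replicate number as a block called 1005, 314 and 700 genes in these 3 comparisons. Of 528 single-gene values under alternatives 509 kept their direction and side of the threshold, 15 lost a call, 4 gained one and 0 reversed. These values cover only a small set of named genes. Most of that set were the largest gains and falls, chosen because they were called without overlap, so their stability was partly fixed by the choice. It does not extend to the 1166 calls, of which 378 were kept with only the 6 libraries compared. Of 336 list counts 290 stayed within 1.5 times. With only the 6 libraries compared, the counts of higher gluconeogenesis, peroxisomal and oxidative stress genes were 0, 1 and 2.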
